A study of Drosophila melanogaster with 6 samples.

Results

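The unfolded protein response regulators described here were Xbp1, Ire1, Atf6, PEK and crc, 5 of the 13395 genes in the deposited count table, taken by their gene symbols. When unfolded proteins collect in the endoplasmic reticulum (ER), the membrane sensors Ire1, PEK and Atf6 start the response along separate branches. Ire1 is a kinase and nuclease that cuts a short intron out of the Xbp1 mRNA, so that the message encodes the active bZIP factor. PEK, the fly PERK, phosphorylates eIF2alpha, which slows translation in general and favours that of crc, the fly ATF4. Atf6 is a bZIP factor held in the ER membrane until proteases release it. The branches meet on genes for ER chaperones, ER-associated degradation and amino acid supply, and secretory cells, to which hemocytes belong as makers of basement membrane and clotting proteins, are known to depend on them.

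The groups were GFP-positive Hml+ hemocytes, fly blood cells, sorted from white prepupae (3 libraries) and from L3 wandering larvae (3 libraries). The study asked which genes change as sessile larval hemocytes become motile at the onset of metamorphosis. All 6 libraries carried the same genotype, in which the driver Hml-GAL4.delta directs UAS-GFP to cells that express hemolectin. Only GFP-positive cells were sampled, and the sort does not give their hemolectin level at that time. The labels name no treatment at either stage. The labels do not say whether the libraries of a stage came from separate groups of animals, so each p-value measures the spread between these libraries, which may be technical.

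The prepupal libraries held 19228352, 22110219 and 19791331 counts, and the larval libraries 25958543, 21038176 and 21067698. All 5 regulators were among the 7914 genes with enough counts to be tested. Of all tested genes, edgeR called 53.9% different between the stages at a false discovery rate (FDR) below 0.05, 26.6% higher and 27.3% lower in prepupal hemocytes. With libraries scaled by their total counts, 33.2% of the calls were higher in prepupal hemocytes, against 49.4% with TMM factors, and over all tested genes the log2 fold change had a median of −0.22, against −0.03. The fold changes also fell with the exonic length of a gene (Spearman rho of −0.40 across tested genes, which are not independent replicates), so the results were set beside a fit in which each library's length trend was removed. Markers of the labelled cells were present at both stages and mostly lower in the prepupa. Hml itself was at 248, 83.9 and 114 CPM (counts per 1000000 of effective library size) in prepupal libraries, against 5164, 3208 and 6364 CPM in larval libraries. Of 8 plasmatocyte markers 7 were lower and 1 (crq) higher, with a summed level of 4401 to 7029 CPM in prepupal and 16906 to 25041 CPM in larval hemocytes. All 4 crystal cell markers were lower, with a sum of 555 to 1472 CPM in prepupal and 2049 to 3211 CPM in larval hemocytes. Nearly all of that sum was PPO1 and PPO2, as lz and peb reached at most 3.39 and 5.80 CPM. The stages overlapped for peb, which was not called with the length trend removed (FDR = 0.11). Of 2 tested lamellocyte markers PPO3 was higher, and the list summed to 54.5 to 63.5 CPM in prepupal and 23.1 to 26.4 CPM in larval hemocytes. Genes of fat body (2 higher and 1 lower of 5 tested, 27.0 to 34.8 CPM in prepupal and 27.8 to 34.0 CPM in larval hemocytes), salivary gland (6 tested, 6.52 to 9.82 CPM in prepupal and 6.40 to 9.02 CPM in larval hemocytes) and muscle (5 tested, 7.87 to 11.3 CPM in prepupal and 7.74 to 10.6 CPM in larval hemocytes) were low at both stages. No gene of the salivary gland and muscle lists passed edgeR, DESeq2 or limma-voom, and 0 had an unadjusted edgeR p below 0.05. In such bulk libraries fewer cells of a type and less RNA per cell cannot be told apart, and the part of these markers in the results that follow was not tested.

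Xbp1 (FBgn0021872) lies on the plus strand of chromosome 2R at 21143545 to 21145750 of dm6 and has the shortest exonic sequence of the 5, 2142 bases. The annotation gives it 2 transcripts, of 307 and 498 codons, and only the longer reading frame lacks a 23-base intron at 21144506 to 21144528. That intron is not a multiple of 3 in length, so its removal shifts the frame, as known of the form cut by Ire1. The counts are per gene and do not separate the 2 forms, so they measure Xbp1 mRNA and not its splicing. Ire1 (FBgn0261984) has 7 exons, 4034 exonic bases and 1 transcript of 1074 codons on the minus strand of 3R, at 19853908 to 19861291. It shares 496 exonic bases with MICU3 on the opposite strand, and since the libraries keep no strand, reads there cannot be told apart. MICU3 had at most 896 counts in any library. Atf6 (FBgn0033010) has 3 transcripts and 4085 exonic bases on the plus strand of 2R, at 5144733 to 5154756. PEK (FBgn0037327) is the longest, with 3 transcripts and 4873 exonic bases on the minus strand of 3R, at 5458563 to 5464753. crc (FBgn0000370) has 4 transcripts and 3423 exonic bases on the plus strand of 2L, at 21310866 to 21319527, of which 1174 are coding. The reading frame CG46314, of 26 codons, shares all of its 2515 exonic bases with crc, which leaves crc 908 bases of its own. CG46314 has no row in the count table. No source used here says whether reads in the shared bases were counted for crc.

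**Figure D1:**
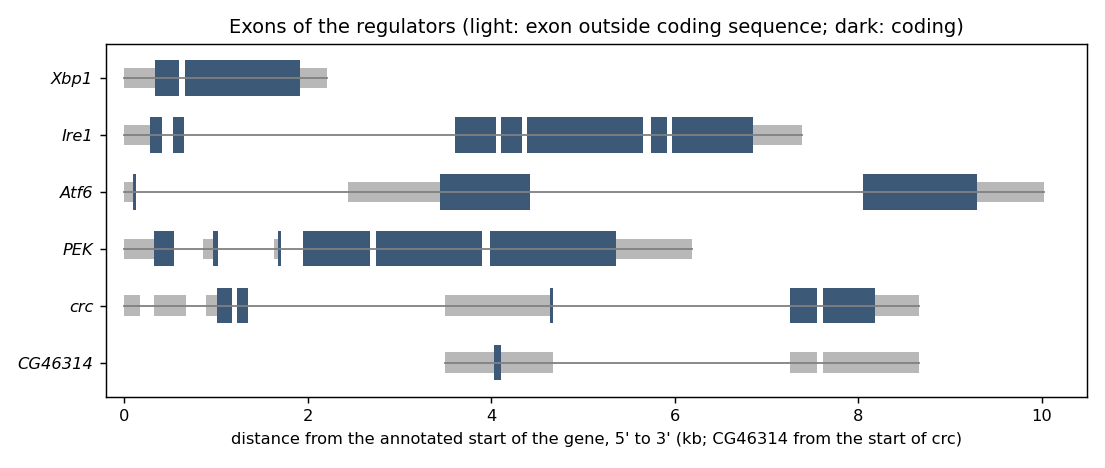
Exons of the 5 regulators and of CG46314, drawn to scale from the annotated start of each gene (x axis in kb, 5′ to 3′), with coding exon in dark and the rest of the exons in light boxes, overlaid across transcripts. Xbp1 is the shortest of the 5, and every exon of CG46314 falls on an exon of crc.

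At the level of mRNA, 1 of the 5 regulators was called different between the stages in the fit with TMM factors. Xbp1 was upregulated in prepupal hemocytes by 1.42-fold, while Ire1, Atf6, PEK and crc did not pass the test. One call among 5 is to be read against the 26.6% of all tested genes that were called higher. With the length trend removed 2 regulators were called higher, beside 29.3% of tested genes. No regulator was called lower by edgeR, DESeq2 or limma-voom, and 0 of 5 had an unadjusted edgeR p below 0.05 with a negative fold change, beside 27.3% of all tested genes called lower.

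Xbp1, the bZIP factor at the end of the Ire1 branch, was at 892, 956 and 763 CPM in prepupal libraries, against 618, 665 and 553 CPM in larval libraries. Every prepupal library was above every larval library, which held for no other regulator in either direction. Of all tested genes, 63.0% had ranges that did not overlap between the stages. The means were 870 ± 98.0 CPM in prepupal and 612 ± 55.9 CPM in larval hemocytes (SD, n = 3 each). The log2 fold change was 0.51 (SE 0.13; 95% interval 0.22 to 0.80; edgeR FDR = 0.0088), and 49.9% of tested genes had a smaller change in absolute size. It was called under all 14 other settings of the fit, between 0.31 with total counts (FDR = 0.042) and 0.63 with the length trend removed. An exact permutation test of the 6 CPM values gave p = 0.1 (two-sided), the smallest that 3 against 3 libraries allow.

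In TPM (transcripts per 1000000), which divide each count by exonic length and set all genes of a library to 1000000, Xbp1 was at 584, 584 and 527 TPM in prepupal libraries, against 561, 539 and 515 TPM in larval libraries. Here the lowest prepupal library lay below the 2 highest larval libraries. The means were 565 ± 32.6 TPM in prepupal and 538 ± 23.0 TPM in larval hemocytes (SD, n = 3 each). Exonic length is the same in every library, so between libraries TPM differ from CPM only by a factor common to all genes. The TPM are therefore given to compare genes with each other, and the stages are compared by the fitted fold change.

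Ire1, the sensor that cuts Xbp1, was at 69.2, 63.6 and 80.8 CPM in prepupal libraries, against 81.6, 72.3 and 85.0 CPM in larval libraries. The ranges overlapped, with prepupal replicate 3 above the lowest larval library. The log2 fold change was −0.16 (SE 0.13; 95% interval −0.44 to 0.12; edgeR FDR = 0.31), an interval that runs from 0.735 to 1.09 as a fold. With the length trend removed the sign turned, to 0.20 (FDR = 0.11).

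Atf6 was at 57.0, 54.0 and 58.2 CPM in prepupal libraries, against 63.2, 53.2 and 66.5 CPM in larval libraries. The prepupal values sat close together and inside the larval range. The log2 fold change was −0.11 (SE 0.12; 95% interval −0.38 to 0.16; edgeR FDR = 0.45). With the length trend removed it was 0.26 and past the threshold (FDR = 0.038), so the direction and the call both depended on that step. In that fit 29.3% of 7873 tested genes were called higher.

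PEK, the eIF2alpha kinase of the ER, varied most of the 5 between prepupal libraries. It was at 63.7, 38.8 and 33.9 CPM in prepupal libraries, against 60.9, 50.1 and 56.2 CPM in larval libraries. Prepupal replicate 1 was above every larval library and the other 2 prepupal libraries were below every one. The coefficient of variation was 35.1% in prepupal and 9.69% in larval hemocytes. The log2 fold change was −0.30 (SE 0.21; 95% interval −0.77 to 0.18; edgeR FDR = 0.26). Without prepupal replicate 1 it was −0.61 and called (FDR = 0.0093), while with the length trend removed it was 0.13 (FDR = 0.59). Whether PEK was called thus turned on a single library.

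crc, the translationally controlled factor downstream of PEK, was at 196, 238 and 182 CPM in prepupal libraries, against 181, 206 and 214 CPM in larval libraries. The highest library was prepupal, the lowest larval, and the others interleaved. The means were 205 ± 29.1 CPM in prepupal and 200.2 ± 17.5 CPM in larval hemocytes (SD, n = 3 each). The log2 fold change was 0.04 (SE 0.13; 95% interval −0.25 to 0.33; edgeR FDR = 0.82). Its sign turned with total counts (−0.16, still above the median of all genes in that scaling) and without larval replicate 1 (−0.022) or prepupal replicate 2 (−0.082). With the length trend removed crc was at 0.34 (FDR = 0.074), and with the replicate number added as a block at 0.33 (FDR = 0.036).

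**Figure D2:**
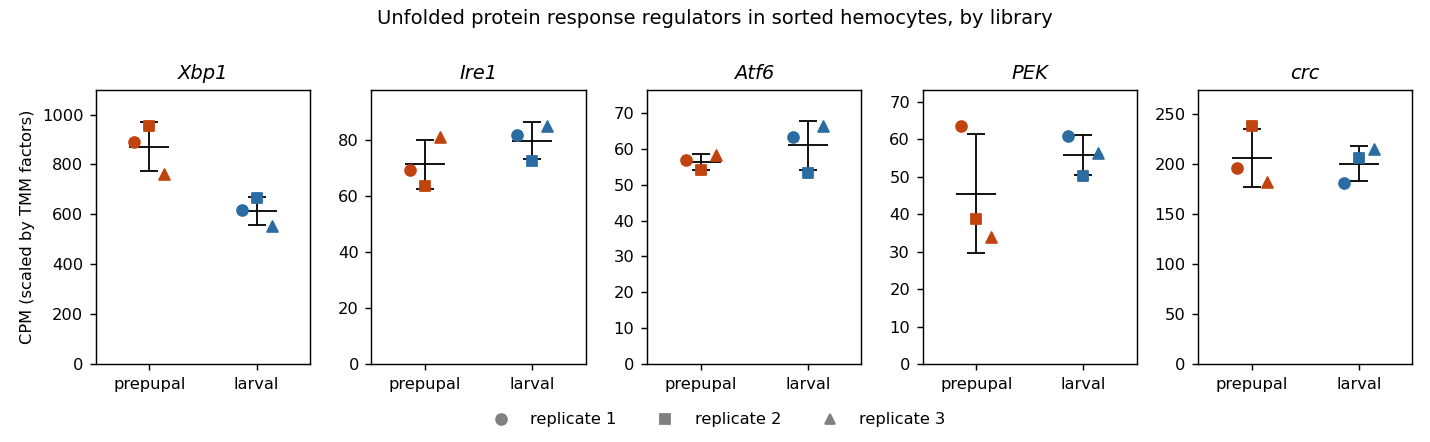
Each panel shows 1 regulator in CPM (y axis, from 0, scaled by TMM factors) in the 3 prepupal and 3 larval libraries, with symbols for the replicate number and bars for the mean ± SD. The 3 prepupal libraries of Xbp1 (763 to 956 CPM) sit above its 3 larval libraries (553 to 665 CPM), while the stages overlap for the other 4.

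**Figure D3:**
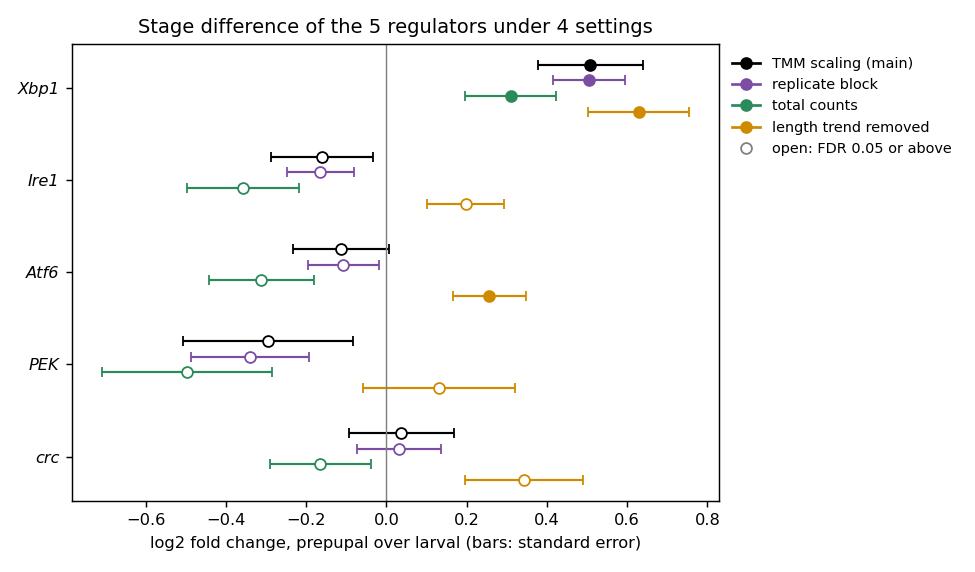
Log2 fold change of each regulator, prepupal over larval (x axis, bars ± SE), in the fit with TMM factors, with the replicate number as a block, with total counts and with the length trend removed. Filled points are past an FDR of 0.05. Xbp1 is filled in all 4 fits, and Ire1, Atf6 and PEK change side when the length trend is removed.

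The order of the regulators by level was the same at both stages. Per length, Xbp1 came first, followed by crc at 80.2, 91.0 and 78.8 TPM in prepupal libraries, against 103, 104 and 125 TPM in larval libraries. Ire1 was next, at 24.1, 20.6 and 29.7 TPM in prepupal libraries, against 39.4, 31.1 and 42.0 TPM in larval libraries. Then came Atf6 at 17.3 to 21.1 TPM in prepupal and 22.6 to 32.4 TPM in larval libraries, and PEK at 10.3 to 18.3 TPM in prepupal and 17.9 to 24.3 TPM in larval libraries. At each stage the libraries of Xbp1 and crc, and those of crc and Ire1, did not overlap. The ranges of Ire1 and Atf6 overlapped across libraries, as did those of Atf6 and PEK, but within a library the order held. Ire1 was above Atf6 in all 6 libraries, by a TPM ratio of 1.19 to 1.41, and Atf6 above PEK in all 6, by 1.07 to 2.05. The transcription factors Xbp1 and crc thus stood above the 2 sensor kinases and Atf6. Xbp1 was at the 97.3 percentile of tested genes in prepupal and the 97.2 percentile in larval hemocytes. If no read in the shared bases was counted for crc, all its counts belong to the 908 bases that it does not share. Its level would then be 314 ± 25.2 TPM in prepupal and 417 ± 46.4 TPM in larval hemocytes (SD, n = 3 each), still second.

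In TPM, Xbp1 made up a larger part of the regulators' mRNA in prepupal libraries. It held 80.4%, 80.7% and 79.0% of their summed TPM in prepupal libraries, against 74.1%, 75.4% and 69.9% in larval libraries. The stages did not overlap. A ratio of 2 genes within a library does not depend on how libraries are scaled, so the 10 pairs of regulators were also compared as TPM ratios. Xbp1 over Ire1 was 24.3, 28.3 and 17.8 in prepupal libraries, against 14.3, 17.3 and 12.3 in larval libraries. Xbp1 over Atf6 was 29.8, 33.8 and 25.0 in prepupal libraries, against 18.6, 23.8 and 15.9 in larval libraries. Xbp1 over PEK was 31.9, 56.0 and 51.2 in prepupal libraries, against 23.1, 30.2 and 22.4 in larval libraries. In each of these pairs every prepupal library was above every larval library, narrowly for Xbp1 over Ire1 and widely for replicates 2 and 3 of Xbp1 over PEK. Xbp1 over crc was 7.28, 6.42 and 6.69 in prepupal libraries, against 5.47, 5.16 and 4.13 in larval libraries. The mean log2 ratio was higher in prepupal hemocytes by 0.67 against Ire1, 0.61 against Atf6, 0.85 against PEK and 0.47 against crc. Each gave p = 0.1 in a two-sided exact permutation test, the smallest possible with 3 against 3, and 0.25 after Benjamini-Hochberg adjustment over the 10 pairs. The 6 pairs without Xbp1 overlapped between the stages (exact permutation p of 0.3 to 0.7, adjusted 0.6 to 0.7). The 4 pairs share the Xbp1 counts and are not separate evidence, and the partner genes are all longer than Xbp1. The length trend was left in these ratios and in the shares of summed TPM. With that trend removed the log2 fold change of Xbp1 was 0.63, beside 0.13 to 0.34 for the other 4 regulators.

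**Figure D4:**
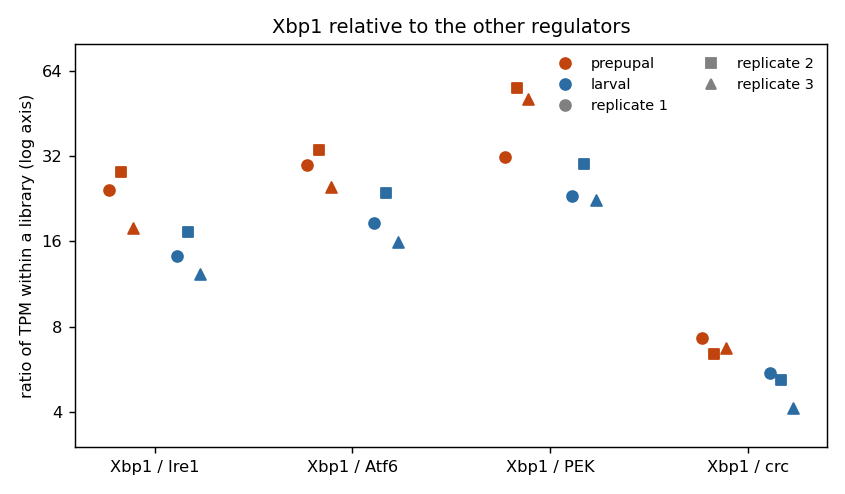
Ratio of Xbp1 to each of the other regulators in TPM within a library (log y axis), prepupal libraries left of larval libraries, symbols by replicate number. In all 4 pairs the 3 prepupal points lie above the 3 larval points, from 17.8 against 17.3 at the closest for Ire1.

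The genes with the most similar course over the 6 libraries differed between the regulators. Likeness was the Pearson r of log2 CPM among the 2812 genes that averaged 50 CPM or more, given as a description, since the libraries share stage and length trend. Xbp1 was most like Stip1, a cochaperone of Hsp70 and Hsp90 (r = 0.998), and CCT4, a subunit of the cytosolic chaperonin (r = 0.997). It had 431 genes over an r of 0.95, the count including any regulator itself at that level. For Ire1 they were CG43367 (r = 0.985) and mfrn, a mitochondrial iron carrier (r = 0.981). For Atf6 they were CtBP, a transcriptional corepressor (r = 0.994), and sigmar (r = 0.983). PEK was most like CG34401 (r = 0.971) and E(spl)mbeta-HLH, a repressor induced by Notch (r = 0.967), and crc most like CkIIalpha, the catalytic subunit of casein kinase 2 (r = 0.970), and the helicase Dbp80 (r = 0.962). The course of Xbp1 was thus a common one in these libraries, while Ire1, Atf6, PEK and crc had 9, 16, 5 and 4 genes over that r.

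Among genes that process Xbp1 and Atf6, the ER membrane protein BI-1, which restrains IRE1 in mammals, was at 168, 203 and 161 CPM in prepupal libraries, against 105, 121 and 118 CPM in larval libraries. Every prepupal library was above every larval one, with a log2 fold change of 0.63 (SE 0.12; edgeR FDR = 0.0023). RtcB, the ligase that joins the cut Xbp1 mRNA in mammals and worms, was also called higher, at 0.27 and close to the threshold (FDR = 0.047). Of the fits with a library left out, it passed only without larval replicate 2, with an FDR of 0.092 to 0.17 in the others. Its FDR was 0.58 with total counts, 0.022 with the replicate block and 0.029 with the length trend removed. Archease, a cofactor of RtcB in mammals, went the other way. It was at 15.4, 13.9 and 19.7 CPM in prepupal libraries, against 27.0, 24.9 and 29.2 CPM in larval libraries (log2 fold change −0.73, FDR = 0.0035). S1P, the protease that makes the first cut in Atf6 in mammals, was at 12.3, 11.8 and 12.9 CPM in prepupal libraries, against 18.4, 17.1 and 19.5 CPM in larval libraries (−0.57, FDR = 0.0051, and −0.31, FDR = 0.043, with the length trend removed). S2P, which makes the next cut, had a log2 fold change of 0.23 (FDR = 0.098), and 0.32 without larval replicate 2 (FDR = 0.040). Of the 5 genes of this list 2 were thus higher and 2 lower, beside 26.6% and 27.3% of all tested genes. The median was 0.23, beside −0.03 for all tested genes.

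The eIF2 list holds eIF2, its exchange factor, PPP1R15 and Gcn2, an eIF2alpha kinase other than PEK. Of its 10 genes 2 were higher and 1 lower, beside 26.6% and 27.3% of all tested genes. The median log2 fold change of the list was 0.07. The higher ones were both subunits of the exchange factor that recharges eIF2, eIF2Bbeta at 0.51 (FDR = 0.0100) and eIF2Balpha at 0.42 (FDR = 0.013). Gcn2, the eIF2alpha kinase that answers to amino acid shortage, was at 45.0, 35.1 and 42.8 CPM in prepupal libraries, against 58.5, 52.2 and 57.3 CPM in larval libraries. The stages did not overlap (log2 fold change −0.45, FDR = 0.014), but with the length trend removed the value was 0.03 (FDR = 0.81), and the FDR was 0.064 without larval replicate 1 and 0.051 without prepupal replicate 2. PPP1R15, which brings the phosphatase to eIF2alpha, had a log2 fold change of 0.17 (FDR = 0.21), and eIF2alpha itself one of −0.10. With total counts neither subunit passed, and eIF2Balpha passed neither with the length trend removed (0.16, FDR = 0.21) nor without prepupal replicate 2 (FDR = 0.053).

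Genes described as downstream of crc were called in both directions. CG11899, the fly Psat of serine synthesis, was at 987, 1224 and 1121 CPM in prepupal libraries, against 266, 368 and 228 CPM in larval libraries, a log2 fold change of 1.95 (SE 0.18; FDR = 3.8e-05). Nmdmc, of mitochondrial one-carbon metabolism, was at 128, 165 and 130 CPM in prepupal libraries, against 47.9, 57.8 and 45.0 CPM in larval libraries (1.49, FDR = 4.9e-05). AsnS, asparagine synthetase, was higher by less, at 0.64 (FDR = 0.0027). These 3 genes of amino acid and one-carbon supply were called higher in each of the 6 fits without 1 library. Their stages did not overlap, which held for 63.0% of all tested genes. Xrp1, a bZIP factor, was at 334, 288 and 360 CPM in prepupal libraries, against 715, 408 and 858 CPM in larval libraries, with larval replicate 2 closest to the prepupal values (−1.01, FDR = 0.0052, and −0.56, FDR = 0.022, with the length trend removed). Shmt, which feeds one-carbon metabolism from serine, was lower at −0.32 (FDR = 0.035). Of the fits with a library left out, it passed only without prepupal replicate 2, with an FDR of 0.068 to 0.12 in the others. Its FDR was 0.0034 with total counts, 0.0092 with the replicate block and 0.39 with the length trend removed. Thor, the translation inhibitor 4E-BP, had a log2 fold change of −0.40 (FDR = 0.33). The others not called were aay at 0.41 (FDR = 0.054), trbl at −0.29 (FDR = 0.068) and Ldh at −1.50 (FDR = 0.083). Of 9 tested genes 3 were higher and 2 lower, beside 26.6% and 27.3% of all tested genes. The median was −0.29, beside −0.03 for all tested genes.

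Most ER chaperones and folding enzymes did not pass the test. Of 14 tested genes 1 was higher and 1 lower, beside 26.6% and 27.3% of all tested genes. The median log2 fold change of the list was −0.04. The one that rose was shv, an ER DnaJ protein, at 0.43 (FDR = 0.012, and 0.090 with total counts), and the one that fell was ERp60, a disulfide isomerase, at −0.32 and at the edge of the threshold (FDR = 0.049), a call lost whichever library was left out (FDR of 0.053 to 0.20). Hsc70-3, the fly BiP and the chaperone that holds the sensors inactive, was at 2965, 2270.3 and 2386 CPM in prepupal libraries, against 2384, 2246 and 1805 CPM in larval libraries. Prepupal replicate 1 was the highest and the stages overlapped (log2 fold change 0.24, FDR = 0.21). With the length trend removed Hsc70-3 was at 0.56 and called (FDR = 0.0097), and 3 genes of the list were then higher and 2 lower.

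Of 10 tested genes of ER-associated degradation 3 were higher and 1 lower, beside 26.6% and 27.3% of all tested genes. The median of the list was 0.19 on the log2 scale. TER94, the ATPase that pulls proteins out of the membrane, was at 1220, 1130.3 and 1175 CPM in prepupal libraries, against 883, 948 and 750 CPM in larval libraries (0.45, FDR = 0.013). Its cofactor Ufd1-like (0.51, FDR = 0.0084) and the channel protein Der-1 (0.50, FDR = 0.0093) also rose. The ubiquitin ligase sip3, the fly HRD1, was at 58.3, 57.7 and 66.2 CPM in prepupal libraries, against 89.5, 84.7 and 75.1 CPM in larval libraries (−0.45, FDR = 0.0093), a call lost without larval replicate 1 (FDR = 0.057) and with the length trend removed (−0.23, FDR = 0.085). With total counts none of the 3 higher genes passed at an FDR below 0.05 and 4 genes of the list were lower, while with the length trend removed 6 were higher and 0 lower.

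Of 14 tested other bZIP transcription factors, relatives of Xbp1, Atf6 and crc, 2 were higher and 5 lower, with a median of −0.63. Over all tested genes 26.6% were higher and 27.3% lower, with a median of −0.03. REPTOR, a factor under TOR control, was at 3.21, 2.08 and 3.73 CPM in prepupal libraries, against 34.1, 13.2 and 44.6 CPM in larval libraries (log2 fold change −3.35, FDR = 0.00020). Atf3 was at 3.71, 1.73 and 3.36 CPM in prepupal libraries, against 28.6, 8.68 and 33.4 CPM in larval libraries (−3.01, FDR = 0.00071). Larval replicate 2 was the lowest larval library in both. The others were vri (−1.28), cnc (−1.11) and CrebA (−0.96), which drives secretory genes, while maf-S (0.82) and Irbp18 (0.47), a partner of Xrp1, were higher. With the length trend removed Irbp18 was at −0.03 (FDR = 0.86), maf-S at 0.34 (FDR = 0.022), cnc at −0.45 (FDR = 0.0056) and CrebA at −0.54, no longer called (FDR = 0.051). Irbp18 also lost its call without larval replicate 1 (FDR = 0.12), larval replicate 3 (FDR = 0.058) or prepupal replicate 2 (FDR = 0.11).

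**Figure D5:**
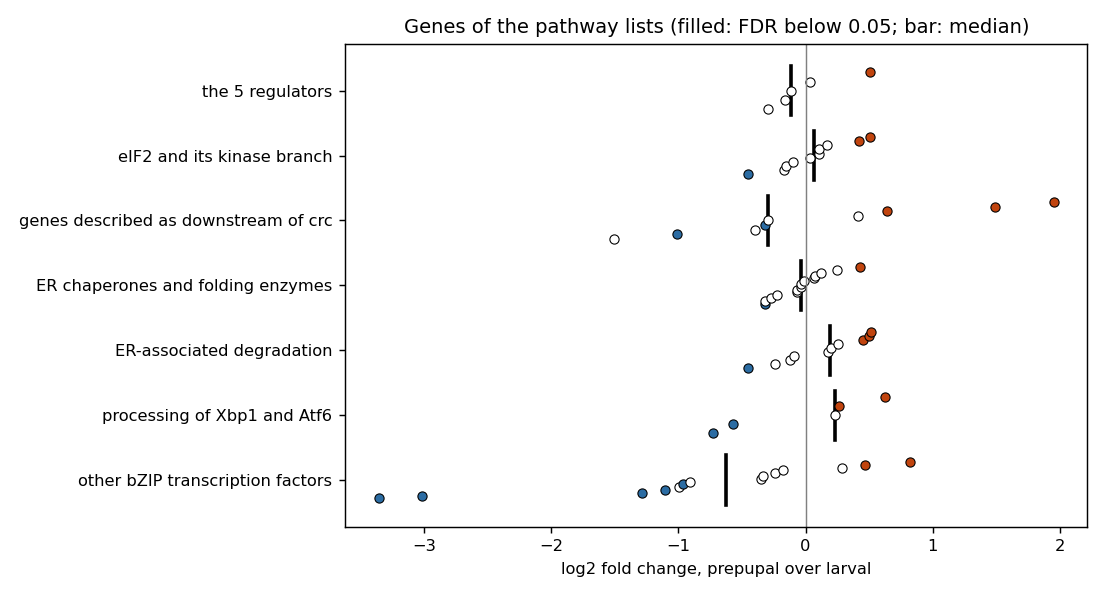
Log2 fold change, prepupal over larval, of every tested gene of the 5 regulators and 6 pathway lists, 1 point a gene, filled where edgeR called it at an FDR below 0.05, with the median as a bar. Medians run from −0.63 for other bZIP factors to 0.23 for the processing of Xbp1 and Atf6, and the crc list holds called genes on both sides, from −1.01 to 1.95.

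Heat shock genes, which answer to unfolded proteins in the cytosol, moved with the stages too. Of 7 tested genes edgeR called 5 higher, beside 26.6% of all tested genes. DESeq2 called 3 genes of the list higher and limma-voom 4. The median was 1.39 on the log2 scale, and the list summed to 25691 to 36413 CPM in prepupal and 5010 to 11893 CPM in larval hemocytes. Without the replicate block, no gene of the list was called lower by edgeR, DESeq2 or limma-voom. In that edgeR fit 0 had an unadjusted p below 0.05 in that direction, beside 27.3% of all tested genes called lower. Hsp68 had a log2 fold change of −0.71 there (FDR = 0.17), with overlapping stages, but passed with the replicate block (FDR = 0.0074). The list thus did not move only upward in every fit. On the higher side, DnaJ-1 also passed with the block (FDR = 0.0068). Hsp23 alone was at 25809, 30657 and 21785 CPM in prepupal libraries, against 5787, 8872 and 3452 CPM in larval libraries (log2 fold change 2.11, FDR = 0.00046). Hsp26 (2.45, FDR = 0.00062) and Hsp27 (0.80, FDR = 0.011) were also called higher, while DnaJ-1 was not called without the block (0.99, FDR = 0.066). Hsp83, the fly Hsp90, was at 2250.5, 1497 and 341 CPM in prepupal libraries, against 634, 457 and 302 CPM in larval libraries, with prepupal replicate 3 inside the larval range (log2 fold change 1.55, FDR = 0.033), and was not called without prepupal replicate 1 (0.99, FDR = 0.15), prepupal replicate 2 (FDR = 0.079) or larval replicate 3 (FDR = 0.075), nor with total counts (FDR = 0.054). The part of this difference in the change of Xbp1 was not tested.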

How the data were processed

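Polyadenylated RNA of sorted hemocytes was sequenced from 1 end (50 bp) without strand information. The authors removed adapters with trimmomatic, mapped the reads with STAR to dm6 with an Ensembl annotation and deposited raw counts per gene, with no normalization and no pooling of replicates. The submitters' processing notes also list featureCounts and bcl2fastq 2.20. The sources used here give no counting settings. Columns were matched to libraries by name, with 0 left unmapped.

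Stages were compared by the quasi-likelihood F test of edgeR 4.0.16 under R 4.3.3, with TMM factors and a low-count filter (filterByExpr, minimum count 10). P-values were adjusted by Benjamini-Hochberg over all 7914 tested genes and called below 0.05. The script was tested on simulated counts. Libraries held between 19228352 and 25958543 counts. Pairs of libraries of a stage differed by far more than the sampling noise of such counts (chi-square per degree of freedom of 28.6 to 99.0). TPM were computed from the counts and exonic lengths of a more recent Ensembl annotation on this assembly, in which 13332 of 13395 genes were found, 99.7% of them at identical coordinates. The length trend of each library was removed with a loess curve (span 0.5) given to edgeR as an offset.

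Alternatives were DESeq2 size factors, total counts, no low-count filter, DESeq2 1.42.0, limma-voom (limma 3.58.1), a 2-fold minimum, a replicate block, the length trend removed with and without that block, and each library left out. Libraries with the same number deviated together from the means of their stages, with correlations of 0.28, 0.30 and 0.10 across genes, each above 0.1, so the numbers were taken to pair the libraries. The results are from the fit without the block, because the study's methods name none. Their SEs, FDRs and permutation p-values thus treat the libraries as unpaired. With the block the SE of Xbp1 was 0.090, against 0.13 without it.

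The regulators and the gene lists were chosen with earlier results of these data known. Named were every regulator and the called genes of the pathway and heat shock lists, with other genes of these lists by their values only. Some marker genes that moved with the stages were named. So were, for each regulator, the 2 tested genes of at least 50 CPM with the highest Pearson r over the 6 libraries (log2 CPM, prior count 2). Promoter and protein sequences were not used here.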

Additional observations from a re-analysis of the deposited data

How the results depend on the processing

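Xbp1 was called higher in prepupal hemocytes in every fit run, at log2 fold changes of 0.31 to 0.63 across other scalings, tests and length settings and 0.44 to 0.60 with a library left out. In TPM, which were not fitted, its stages overlapped, with means of 565 TPM in prepupal and 538 TPM in larval hemocytes. With the length trend removed, without and with the replicate block, the sign turned for Ire1 (0.20 and 0.19), Atf6 (0.26 and 0.26) and PEK (0.13 and 0.089), and crc was called with the replicate block (0.33). crc turned to −0.16 with total counts, to −0.022 without larval replicate 1 and to −0.082 without prepupal replicate 2. Leaving out a library gave −0.26 to −0.085 for Ire1, −0.17 to −0.030 for Atf6, −0.61 to −0.12 for PEK (the first without prepupal replicate 1, then called) and −0.082 to 0.12 for crc. Regulators called higher numbered 2 with the length trend removed, 3 with the block as well and 0 at 2-fold or more, and regulators called lower 0 to 1 with a library left out. Of all genes 1580 were called at 2-fold or more (621 higher, 959 lower), and 3251 to 4552 with a library left out (1614 to 2322 higher, 1637 to 2230 lower). In the eIF2 list, total counts gave 0 higher and 3 lower, the length trend removed 1 higher, 2-fold 0 and 0, and a library left out 1 to 2 higher and 0 to 1 lower. In the crc list, DESeq2, the length trend removed and 2-fold each gave 1 lower, and a library left out 1 to 2. Among chaperones, 0 higher and 4 lower came with total counts, 3 higher and 2 lower with the length trend removed, 3 higher and 0 lower with the block as well, 2 lower with the replicate block alone, and 0 lower with DESeq2 size factors, with no low-count filter and with any library left out, and 2-fold gave 0 and 0. In ER-associated degradation, total counts gave 0 higher and 4 lower, the length trend removed 6 and 0 with or without the block, 2-fold 0 and 0, and a library left out 0 to 1 lower. In the processing list, total counts, no low-count filter and DESeq2 gave 1 higher, 2-fold 0 and 0, the length trend removed 1 lower, with the block 0 lower (Archease had no exonic length and was left out of both), and a library left out 1 to 3 higher. Among other bZIP factors, total counts gave 1 higher and 8 lower, the length trend removed 1 higher with or without the block, 2-fold 0 higher, and a library left out 1 to 3 higher. The replicate block changed no call of a regulator in the fit without the length step. Dividing all counts of crc by its unshared length, a step chosen after seeing the data, moved its level from 83.4 to 314 TPM in prepupal and from 111 to 417 TPM in larval hemocytes. Beyond the construction of each setting, the cause of these shifts was not tested. Splicing of Xbp1, translation of crc and release of Atf6 were not measured by these counts.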
